A study of Solanum lycopersicum with 8 samples.

Results

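The 74 tomato genes described here are those whose transcripts stood, on average over 4 accessions, at nearly the same relative level in both tissues. They were taken from 207 genes, out of 1180 with a probe for a RefSeq transcript on the array, that had at least 1 probe well above background on every array. A gene was kept when its mean level in fruit and its mean level in leaf differed by less than 0.5 on the log2 scale, which is 1.41-fold. Of the other measured genes, 127 differed by 0.5 or more, and 6 that lay under the threshold were left out by name. The genes were thus chosen by their measured difference between fruit and leaf, which is given as a description and has no test.

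The arrays were one-colour Agilent arrays, 1 for whole red ripe fruit and 1 for whole mature leaf of each of the tomato accessions AV, TM, SK and RJ, which makes 4 fruit and 4 leaf samples. AV came from Hyderabad, TM from Kashmir, SK from Chatha and RJ from Rajouri, and the accessions were said to differ in how their fruit matures and in its carotenoids. No treatment was named. Whether a sample was 1 plant or pooled plants is not given in the labels, and p-values therefore measure only the spread between these arrays, which may be technical. Levels are log2 processed signals minus the array's own 75th percentile over probes above background on all 8 arrays, so that 0 is that percentile and a level is relative to the other transcripts of the same array. Whole organs were used, and fewer cells of a type cannot be told apart from less RNA per cell.

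Of 33750 non-control probes, 17.2% to 24.4% per array exceeded background, and no spot was saturated. Leaf samples of all 4 accessions shared slide 1, AV and TM fruit shared slide 2, and SK and RJ fruit shared slide 3, so tissue and slide cannot be told apart. The labels were checked against marker genes. All 6 measured fruit markers of 7 listed were higher on every fruit array than on any leaf array, and their mean level lay between 1.05 and 1.93 on fruit arrays, against -5.64 to -5.14 on leaf arrays. All 5 measured leaf markers of 6 listed were higher on every leaf array, with mean levels of -4.27 to -3.74 on fruit arrays, against 1.03 to 1.63 on leaf arrays. The fruit marker that did not pass the background filter was PG2, which encodes the polygalacturonase of ripening fruit. Its 6 probes averaged 4.18 in AV, 0.90 in SK and 2.36 in RJ fruit, all of them above background, but -5.88 in TM fruit, against -5.57, -5.99, -5.39 and -5.74 in AV, TM, SK and RJ leaf. None of the 6 probes was above background in TM fruit, which was also the fruit array with the lowest mean of the fruit markers. Without both TM arrays 80 genes met the evenness rule, of which 67 were among the 74.

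Genes used by nearly every living cell include those for making, folding and degrading proteins, for moving proteins through the nuclear pore, and for basic metabolism. Ripening reprogrammes much else, since green tissue loses its chloroplasts and cell walls soften under ethylene and a set of transcription factors. Genes with even levels are of practical use as candidate references for measuring others, and regulators such as hormone receptors can be among them.

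Roles could be given to 56 of the 74 genes from their symbols or synonyms, and these groups were made after the genes and their values were known. There were 8 for signalling, membranes and cytoskeleton, 7 for protein synthesis, 7 for other metabolism, 6 for protein turnover and 6 for silencing, chromatin and transcription. A further 5 belonged to hormone and light signalling and 5 to polyamine and amino acid synthesis, 4 to the cell surface, cell wall and stress, 3 each to nuclear transport and membrane transport, and 2 to redox reactions. No role was given to 18 genes, of which 9 have a symbol. The level rested on 1 probe for 41 genes and on several for 33, and in 11 of the 33 the probes differed in sign. For 43 of the 74, further probes on the array were left out because they were not above background on all arrays. When probes above background throughout at least 1 tissue were used instead, 85 genes met the rule, of which 64 were among the 74. The probes of CS1, which encodes chorismate synthase of aromatic amino acid synthesis, lay furthest apart, with fruit minus leaf differences of -0.19 to 0.95 over 3 probes. Those of HDR, for the last step of the plastid isoprenoid precursor pathway, spanned -0.14 to 0.77 over 4.

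The 74 differences had a median of -0.03, with 36 above 0 and 38 below, and 12 lay within 0.1 of 0. Just inside the threshold lay MAF1, for a nuclear envelope protein, at -0.48, CGS, for cystathionine gamma-synthase of methionine synthesis, at -0.49, and cdc2A-2, for a cyclin-dependent kinase, at -0.50. Just outside lay LOC544050 and H1 at 0.50 and HPL at 0.51. In the fit over all features, 56.2% of 6072 genes and unnamed probes were called between fruit and leaf by limma at an adjusted p of 0.05, against 0 of the 74, and nothing follows from this because the rule used the same difference. The 95% interval of the difference came from the limma fit, which draws on the spread of all features. An interval from a gene's own differences alone was not computed, and for some genes it would be narrower. The SD of the accessions' differences was 0.098 for MAF1, all of them below 0, beside a median of 0.58 over the 74. Which of the 74 such an interval would set apart from 0 was not tested. The interval of the fit included 0 for all 74. It lay wholly within 1 on either side of 0 for 35 of them and within 0.5 for none, with a median half-width of 0.73. For no gene was an uneven level of 0.5 thus outside the interval. Even the interval of MAF1, whose SE was the smallest of the 74, ran from -1.09 to 0.13, wider than 1 in all. With differences under 0.5 by the rule, every interval had to include 0 and none could lie within 0.5. Nothing about the genes follows from either count.

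**Figure D1:**
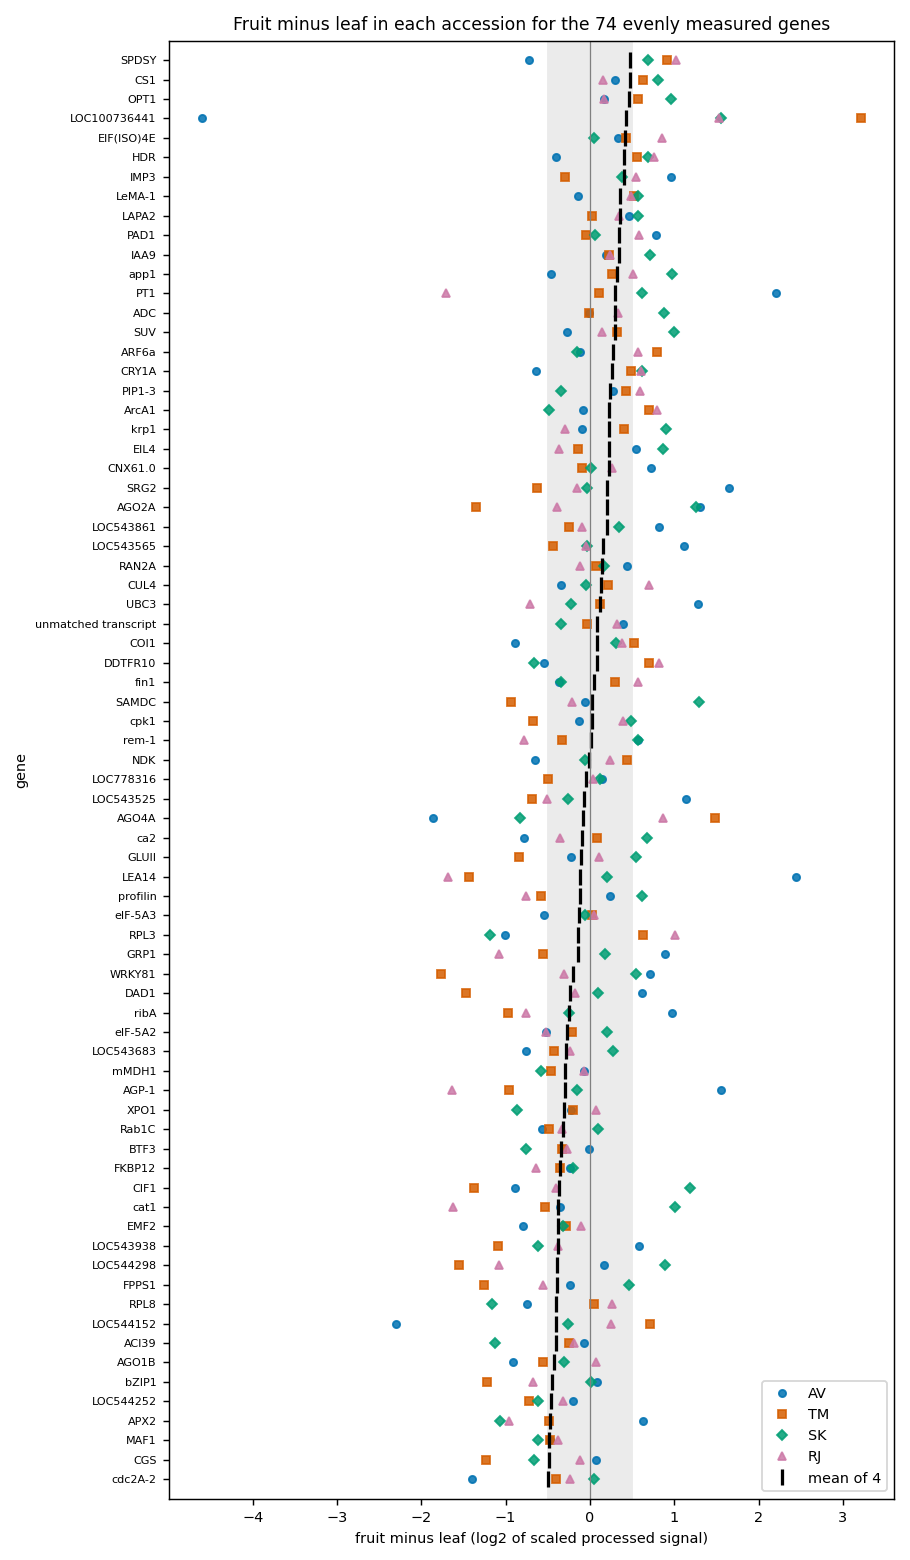
Fruit minus leaf log2 difference of each of the 74 genes in AV, TM, SK and RJ, with the mean of 4 as a black bar and the range of -0.5 to 0.5 shaded. The means lie in the shaded band by the rule, while single accessions reach from -4.60 to 3.22.

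An even mean did not imply an even level in each accession. Of the 74 genes, 2 stayed within 0.5 in all 4 accessions. One was RAN2A, for the small GTPase Ran that drives transport through the nuclear pore, and the other a transcript that the reference does not match to a gene. The differences of MAF1 were closer to each other, at -0.47, -0.48, -0.61 and -0.37 in AV, TM, SK and RJ, all below 0. A wider limit of 1 in every accession was met by 46. Of the 74, 29 were higher in fruit in 2 accessions and lower in the other two, 18 in 1 accession and 15 in 3. Another 7 were higher in leaf in all 4 accessions, and 5 higher in fruit in all 4. The last were CS1, EIF(ISO)4E, for a cap-binding translation factor, IAA9, for an auxin response repressor, LAPA2, for a leucine aminopeptidase, and OPT1, for an oligopeptide transporter.

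RAN2A lay at 0.07, 0.31, 0.62 and 0.00099 in fruit of AV, TM, SK and RJ, against -0.37, 0.24, 0.45 and 0.12 in leaf. In both tissues its SK array was the highest, and the values of fruit and leaf overlapped. The Ran genes RAN1 and RAN2B, also measured on all arrays, had mean differences of 0.70 ± 0.27 and 0.63 ± 0.26, outside the rule. The SE is that of the limma fit, which draws on the spread of all features and not only on the gene's own 4 differences.

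The 6 named genes with the smallest range over the 8 arrays were FKBP12, for an immunophilin, LeMA-1, for a proteasome ATPase, LAPA2, eIF-5A3, for the translation factor eIF5A, NDK, for a nucleoside diphosphate kinase, and fin1. FKBP12 lay at -1.21, -1.23, -1.11 and -1.38 in fruit of AV, TM, SK and RJ, against -0.97, -0.88, -0.91 and -0.74 in leaf. Every fruit value was below every leaf value, with a mean difference of -0.36. LeMA-1 lay at 0.04, 0.33, 0.41 and 0.38 in fruit, against 0.19, -0.19, -0.16 and -0.10 in leaf. Here AV was the exception in both tissues, the lowest fruit and the highest leaf. NDK lay at 1.75, 2.24, 2.28 and 2.26 in fruit, against 2.41, 1.79, 2.34 and 2.03 in leaf. Its mean difference was -0.0094, the AV fruit was low, and the remaining fruit arrays lay within the range of the leaf arrays. LAPA2 lay at -0.40, -0.87, -0.47 and -0.56 in fruit and at -0.86, -0.90, -1.05 and -0.91 in leaf, where TM fruit fell among the leaf values.

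**Figure D2:**
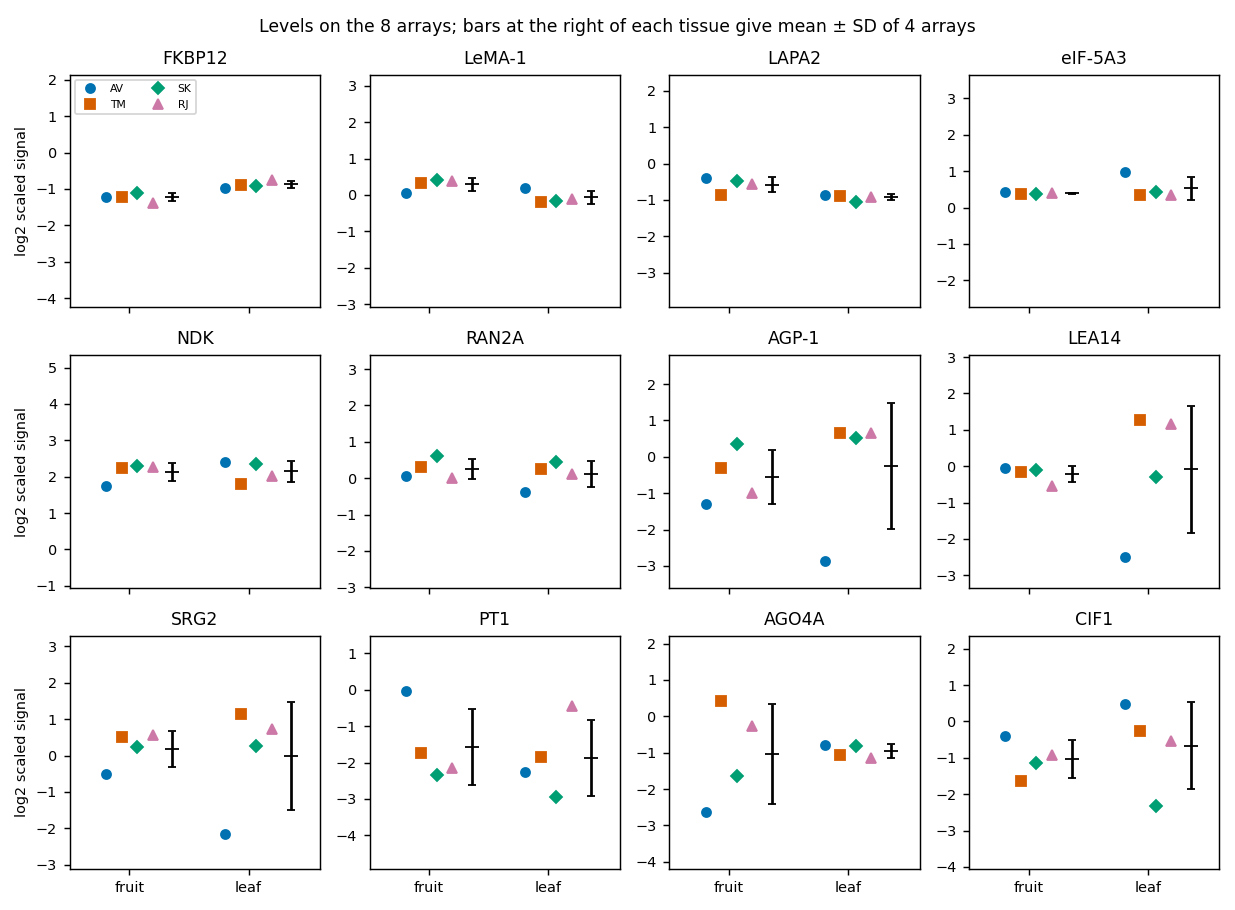
Log2 levels of 12 of the 74 genes on each array, fruit left and leaf right, by accession, with mean ± SD of 4 arrays; each panel spans the same log2 distance. FKBP12 and LeMA-1 stay close together on all arrays, while AGP-1, LEA14 and SRG2 have AV leaf far below the other leaves and AGO4A is spread over the fruits.

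Of the 7 genes of protein synthesis, 2 had a mean difference above 0 and 5 below, beside 36 above and 38 below of all 74. In 6 of the 7 the SD among leaf arrays was larger than among fruit arrays, as it was in 49 of all 74 genes. eIF-5A3 lay at 0.42, 0.37, 0.38 and 0.39 in fruit of AV, TM, SK and RJ (SD 0.024, n = 4), against 0.97, 0.35, 0.44 and 0.34 in leaf (SD 0.30, n = 4). The fruit values were close together. AV leaf was the highest array, and SK leaf also lay just above the fruits. The related eIF-5A2 lay at -0.36, -0.58, -0.42 and -0.51 in fruit, against 0.17, -0.36, -0.62 and 0.02 in leaf, again with AV leaf the highest. The 2 further eIF5A genes measured on all arrays were far from even: eIF-5A1 averaged 3.196 ± 0.60 in fruit and 0.42 ± 1.69 in leaf, and eIF-5A4 0.23 ± 0.11 in fruit and 1.08 ± 0.46 in leaf (SD, n = 4 each). The leaf level of eIF-5A1 was 2.90 in AV, within its fruit range, and between -0.74 and 0.11 in the other leaves.

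Of the ribosomal protein genes, RPL8 and RPL3 met the rule. RPL8 lay at -1.20, -1.06, -1.16 and -0.82 in fruit of AV, TM, SK and RJ, against -0.45, -1.11, 0.01 and -1.07 in leaf. The leaves of TM and RJ matched the fruits, and those of AV and SK lay above them. RPL3, chosen after its values were seen, had the same split in leaf, with -0.57, -1.51, -0.44 and -1.89, while in fruit it lay at -1.58, -0.89, -1.62 and -0.88. In AV and SK it was thus higher in leaf, and in TM and RJ higher in fruit, with differences of -1.01, 0.63, -1.18 and 1.01 that nearly cancelled to a mean of -0.14. ArcA1, for a ribosome-bound scaffold of the RACK1 type and chosen likewise, had differences of -0.08, 0.69, -0.48 and 0.80. The ribosomal protein genes rpl38 and RPS25, outside the rule, had mean differences of -0.94 ± 0.32 and -0.96 ± 0.31 (SE of the limma fit). Nothing was tested between the members of a family.

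Of the 6 genes of protein turnover, 5 had a mean difference above 0, beside 36 of all 74, and nothing follows from this count in a group made after the values were known. CUL4, for a cullin that scaffolds ubiquitin ligases, lay at -2.31, -1.69, -2.25 and -1.65 in fruit of AV, TM, SK and RJ, against -1.97, -1.90, -2.21 and -2.35 in leaf, and the tissues overlapped. PAD1, for a proteasome subunit, lay at -1.73, -2.22, -1.77 and -1.65 in fruit, against -2.52, -2.16, -1.84 and -2.24 in leaf. Its AV, SK and RJ fruits lay above all leaves, and TM fruit among them. UBC3, for a ubiquitin-conjugating enzyme, averaged -1.66 ± 0.34 in fruit and -1.77 ± 0.57 in leaf (SD, n = 4 each).

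**Figure D3:**
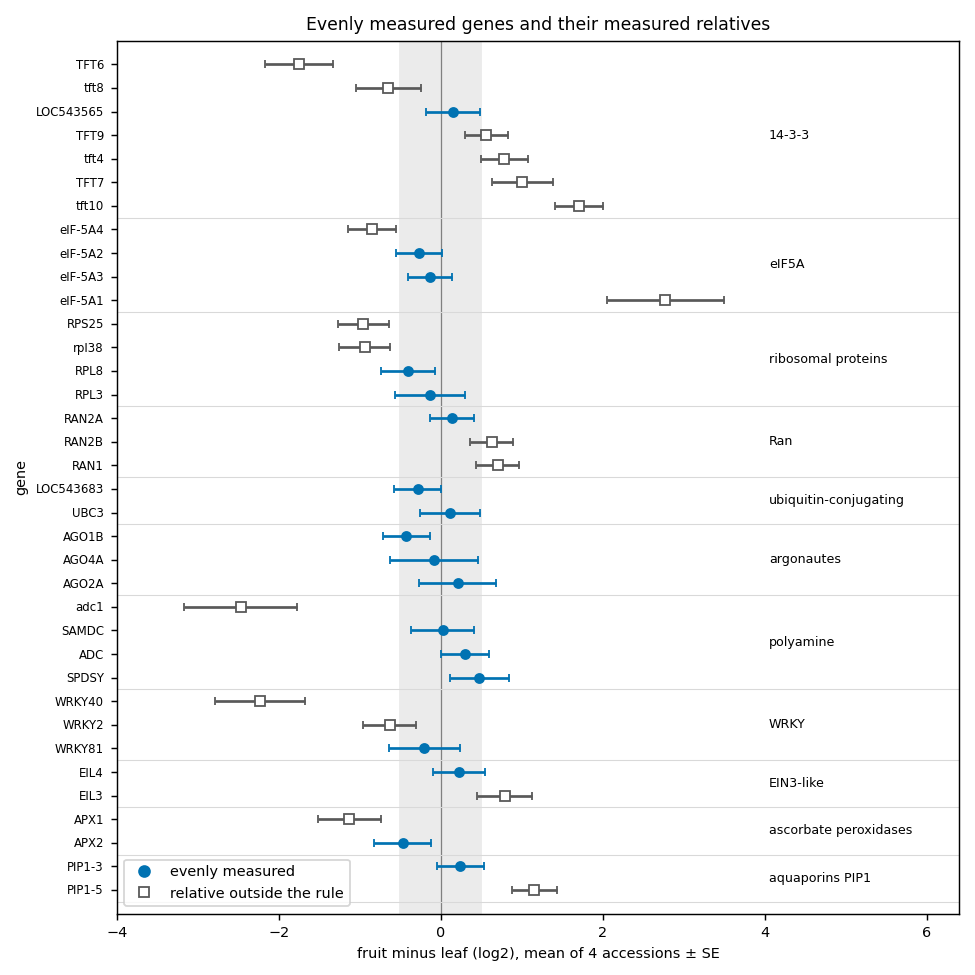
Mean fruit minus leaf log2 difference over 4 accessions for evenly measured genes (blue circles) and some relatives measured on all arrays but outside the rule (open squares), by family. Bars give the SE of the limma fit, and the band from -0.5 to 0.5 is shaded. Relatives lie on both sides, from -2.47 for adc1 to 2.77 for eIF-5A1.

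Argonaute proteins carry small RNAs to their targets. Of 7 argonaute genes listed, 3 were above background on all arrays, and all 3 met the rule, beside 74 of the 207 genes so measured. AGO1B, of the microRNA pathway, lay at -2.27, -1.85, -1.78 and -1.70 in fruit of AV, TM, SK and RJ, against -1.35, -1.30, -1.46 and -1.77 in leaf, and RJ was the only accession in which fruit was the higher. AGO4A, of the DNA methylation pathway, lay at -2.63, 0.42, -1.63 and -0.28 in fruit, against -0.78, -1.06, -0.80 and -1.15 in leaf. The leaf values were close together and the fruit values were spread on both sides of them, so its difference of -0.08 averaged -1.86 in AV and -0.83 in SK with 1.49 in TM and 0.87 in RJ. AGO2A lay at -1.14, -2.23, -0.74 and -1.36 in fruit, against -2.45, -0.87, -2.003 and -0.98 in leaf, the opposite signs to AGO4A in every accession. WRKY81, for a WRKY transcription factor, lay at -1.01, -1.44, -0.63 and -0.62 in fruit, against -1.73, 0.33, -1.17 and -0.31 in leaf, with TM leaf above all other arrays. EMF2, for a Polycomb group protein that keeps genes silent, averaged -3.20 ± 0.16 in fruit and -2.83 ± 0.24 in leaf (SD, n = 4 each).

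All 5 genes of hormone and light signalling had a mean difference above 0, between 0.08 and 0.34, beside 36 of all 74. The group was made after the values were known and the rule used this difference, so nothing follows from the signs. COI1, for the jasmonate receptor, lay at -2.48, -2.10, -2.58 and -2.07 in fruit of AV, TM, SK and RJ, against -1.60, -2.63, -2.89 and -2.45 in leaf. CRY1A, for the blue light receptor cryptochrome, lay at -1.20, -1.10, -1.18 and -1.04 in fruit, against -0.55, -1.59, -1.80 and -1.65 in leaf. Both had AV leaf as the highest array of all 8, and in both the fruits of TM, SK and RJ lay above their own leaves. IAA9 lay at -1.87, -1.47, -1.10 and -1.64 in fruit, against -2.07, -1.69, -1.81 and -1.88 in leaf, higher in fruit in every accession. The remaining ones were the auxin response factor gene ARF6a (-2.64 ± 0.20 in fruit, -2.91 ± 0.34 in leaf) and EIL4, of the EIN3-like factors of ethylene signalling (-0.11 ± 0.15 in fruit, -0.33 ± 0.47 in leaf; SD, n = 4 each).

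Polyamines are made from arginine and S-adenosylmethionine. Of the 5 polyamine genes listed, 3 met the rule, 1 was measured on all arrays but lay outside it, and 1 was not above background on all arrays. Of all 207 genes measured on all arrays, the rule kept 74. ADC, for arginine decarboxylase, lay at -0.35, 0.67, 0.57 and 0.67 in fruit of AV, TM, SK and RJ, against -0.33, 0.68, -0.30 and 0.34 in leaf. AV was the lowest accession in both tissues, and in leaf SK lay close to it. SAMDC, for S-adenosylmethionine decarboxylase, lay at 0.58, -0.30, 1.53 and 0.36 in fruit, against 0.63, 0.64, 0.24 and 0.57 in leaf. The fruits reached above and below the leaves, with SK the highest and TM the lowest. SPDSY, for spermidine synthase, had the highest mean difference of the 74, 0.48, and lay at -1.70, -0.90, -1.20 and -0.70 in fruit, against -0.98, -1.82, -1.88 and -1.72 in leaf. In AV it was the lower in fruit and in the other 3 accessions the higher.

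Redox, metabolic, transport and membrane genes differed in which tissue varied more. cat1, for a catalase that removes hydrogen peroxide, lay at 0.68, 0.24, 0.46 and 0.28 in fruit of AV, TM, SK and RJ, against 1.03, 0.78, -0.55 and 1.91 in leaf, and 5 of its 11 probes were outside the threshold. FPPS1, for farnesyl diphosphate synthase, lay at -2.22, -2.90, -1.37 and -2.81 in fruit, against -1.98, -1.65, -1.84 and -2.25 in leaf. In cat1 the leaves differed more than the fruits, and in FPPS1 the fruits more than the leaves. PT1, for a phosphate transporter, lay at -0.04, -1.75, -2.33 and -2.16 in fruit, against -2.25, -1.85, -2.94 and -0.44 in leaf. A single array stood high in each tissue, AV in fruit and RJ in leaf. DAD1, for a subunit of the enzyme that attaches sugar chains to proteins, lay at -0.997, -2.86, -1.40 and -1.63 in fruit, against -1.61, -1.40, -1.49 and -1.45 in leaf. Its leaves were close together and TM fruit was far below. rem-1, for the membrane protein remorin, was the reverse, at -1.19, -1.13, -1.18 and -1.16 in fruit, against -1.77, -0.80, -1.75 and -0.39 in leaf.

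The spread between accessions was larger in leaf than in fruit for 49 of the 74 genes (66.2%), against 65 of the 127 genes outside the rule (51.2%). The median SD was 0.28 in fruit and 0.34 in leaf for the 74, against 0.42 and 0.44 for the 127. The range over the fruit arrays was under 0.5 for 29 of the 74 genes (39.2%), against 20 of the 127 (15.7%), and the range over the leaf arrays for 16, against 22. With 1 array per accession and tissue there was no test of these counts, and how far the rule itself bears on them was not tested. AV leaf was the highest or the lowest leaf in 50 of the 74 genes, and in 93 of the 127. Without the AV arrays leaf had the larger SD in 37 of 74 genes, and the median SD was 0.25 in fruit and 0.23 in leaf, and without the SK arrays leaf had the larger SD in 40, with medians of 0.28 in fruit and 0.30 in leaf. TM fruit was the lowest fruit in 32 of the 74 and in 53 of the 127. Of the 74, leaf had the larger SD in 49 without the TM arrays and in 47 without the RJ arrays.

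**Figure D4:**
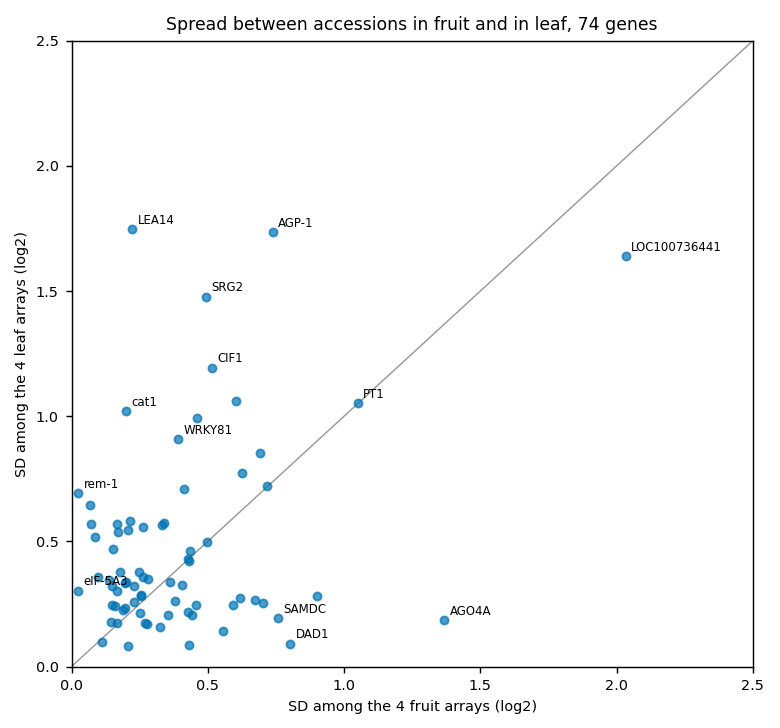
SD among the 4 fruit arrays (x axis) and among the 4 leaf arrays (y axis), log2 scale, 1 point per gene for the 74 genes, with the line of equal SD. Of these, 49 lie above the line; LEA14, AGP-1 and SRG2 lie far above it and AGO4A, SAMDC and DAD1 below it.

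Whether an accession differed from the others over both tissues is separate from the difference that chose the genes. No gene passed the F test of the accession terms in limma after Benjamini-Hochberg adjustment over 6072 genes and unnamed probes (0% called; lowest adjusted p = 0.9996). At an unadjusted p under 0.05, 4 of the 74 passed, beside 2.77% of all features (168). They were SRG2, SUV, AGP-1, for an arabinogalactan protein of the cell surface, and bZIP1, for a bZIP transcription factor. Without the AV fruit array, where AV leaf is the only AV sample, 3 of the 74 (AGP-1, SRG2 and LOC100736441) and 109 of all features passed after adjustment. Set against the mean of the other 3, none of the accessions was called for any feature (0% for the 4 contrasts; lowest adjusted p of the 74 = 0.518). At an unadjusted p under 0.05, AV differed from the others in 8 of the 74, beside 7.18% of all features, SK in 2, beside 3.06%, TM in 0, beside 1.6%, and RJ in 0, beside 0.609%. When AV was changed in simulated features, 50 at each log2 step of 1, 2, 3 and 4, the F test called 0, 3, 22 and 35 of them and the AV contrast 2, 25, 41 and 46. Among the unchanged simulated features the F test called 0 and the AV contrast 3.

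AGP-1 lay at -1.30, -0.30, 0.35 and -0.98 in fruit of AV, TM, SK and RJ, against -2.86, 0.67, 0.50 and 0.65 in leaf. AV was the lowest accession in both tissues, and AV minus the mean of the others was -2.23 ± 0.58 (SE; limma adjusted p = 0.518). SRG2 lay at -0.51, 0.50, 0.22 and 0.56 in fruit, against -2.17, 1.13, 0.26 and 0.72 in leaf, and AV was again the lowest in both. bZIP1 lay at -2.54, -2.13, -0.95 and -1.55 in fruit, against -2.62, -0.91, -0.96 and -0.88 in leaf, where AV leaf and AV fruit were alike and low. GRP1, for a glycine-rich protein, lay at 1.17, 1.81, 2.54 and 1.40 in fruit, against 0.28, 2.37, 2.37 and 2.48 in leaf, with AV the lowest in each. SUV lay at -0.24, -0.76, -1.34 and -0.56 in fruit, against 0.03, -1.07, -2.34 and -0.71 in leaf. Here AV was the highest and SK the lowest in both tissues. CIF1, for an inhibitor of invertase, lay at -0.41, -1.65, -1.15 and -0.93 in fruit, against 0.48, -0.27, -2.34 and -0.53 in leaf, with AV the highest in each. IMP3, for inositol monophosphatase, lay at -0.91, -2.51, -2.01 and -1.92 in fruit, against -1.87, -2.22, -2.39 and -2.47 in leaf, and AV was the highest in both.

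LEA14, for a late embryogenesis abundant protein, was the single seed marker listed. It lay at -0.04, -0.17, -0.09 and -0.53 in fruit of AV, TM, SK and RJ, against -2.48, 1.27, -0.29 and 1.15 in leaf. The fruits were alike, with AV leaf below them, SK leaf among them and the leaves of TM and RJ above. The widest range belonged to LOC100736441, which has no annotated role and was chosen after its values were seen. It lay at -2.99, 1.596, -0.51 and 0.94 in fruit, against 1.61, -1.63, -2.06 and -0.59 in leaf. AV was the lowest fruit and the highest leaf, and the differences of -4.60 in AV and 3.22 in TM, with 1.55 in SK and 1.53 in RJ, averaged to 0.43.

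Even levels here are levels relative to the rest of each array. The 75th percentile that set 0 lay between 11.61 and 12.17 (log2 processed signal) on fruit arrays, against 12.63 to 13.77 on leaf arrays, while the spike-in probes averaged 13.38 to 13.81 on fruit arrays, against 13.22 to 13.61 on leaf arrays. Scaling to the 3 spike-in probes above background, of 10, moved every fruit minus leaf difference by -1.31. The 74 genes then lay between -1.81 and -0.84, 61 were called by limma, all lower in fruit, beside 4131 of the 6072 features, and of the 25 genes that met the rule 0 were among the 74. Which scaling describes the amount of transcript in the organs was not tested. Scaling to the median kept all 74 genes, quantile normalization 67, the deposited log2 values 67 and scaling to the 75th percentile over all probes 57.

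**Figure D5:**
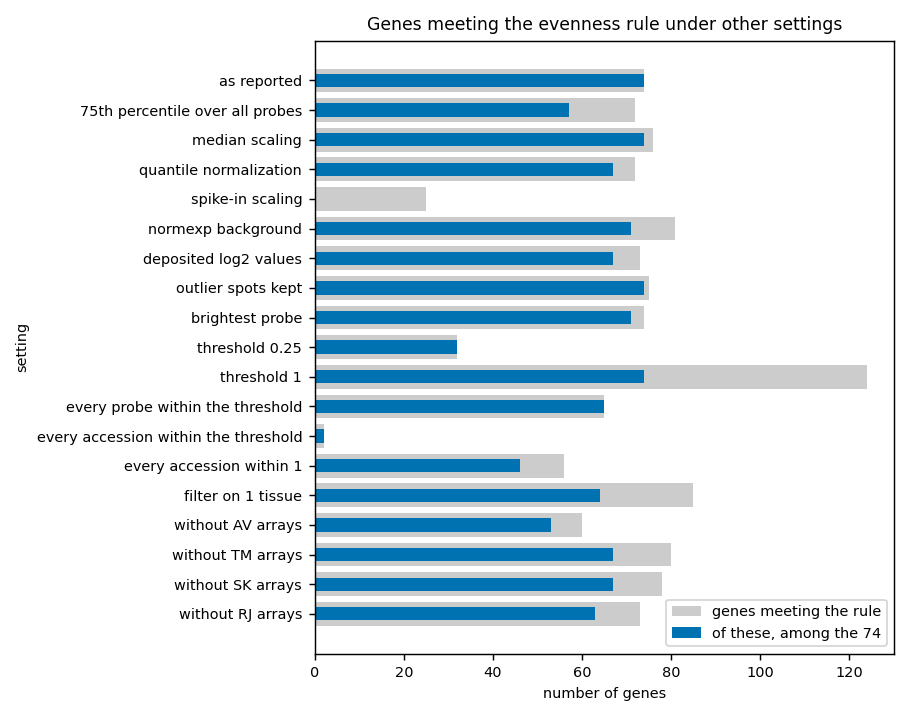
Number of genes meeting the evenness rule under each setting (grey) and, of these, the number among the 74 (blue). The number shared is 0 under spike-in scaling and 2 when every accession must lie within 0.5.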

How the data were processed

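Per the file headers, the deposited scanner files hold intensity values that version 10.7.3.1 of Agilent Feature Extraction made, and the deposited table holds log2 values centred per probe by the authors. The processed signal was used: outlier spots were dropped, spots of a probe averaged, log2 taken and each array's 75th percentile subtracted. The rule that chose the genes does not mention outlier spots. Dropping them was settled after the counts were seen, and keeping them gives 75 genes. Probes were named by transcript accession through RefSeq (SLM_r2.1), which matched 1127 of 1180 genes, and averaged per gene. limma 3.58.1 (R 4.3.3) fitted tissue and accession with 3 residual degrees of freedom to 6072 genes and unnamed probes, with Benjamini-Hochberg adjustment, and was tested on simulated data. With Python 3.11.15, levels, SDs and counts were computed. The number of arrays limits precision.

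The genes, lists and tests were chosen with earlier results of these data known. Full values were planned for genes with the smallest F p, the smallest and largest range, the largest spread of differences, up to 3 per role, those at the threshold and those whose probes differed most. They are printed for only part of these genes, and not for those at the threshold. The planned key words for roles need product names, not used here, so roles and families were assigned by hand after the values were seen. Some related genes are not reported here. The deposited values were used as deposited, since scaling values centred per probe gives another quantity. Normexp was run on median signals.

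The replicate numbers stand for accessions, each with a fruit and a leaf array, so accession was a block in the fit.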

Additional observations from a re-analysis of the deposited data

Results flagged for a closer look

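In each tissue, the array farthest from the other 3 was sought for every gene, by Dixon's ratio of the gap to the range. This set apart 13 of 148 groups of 4 arrays, where chance gives about 1 in 20 for a single group. The groups come from the same arrays and are not independent. The search was run only on the genes that met the rule, so whether other genes hold as many such groups was not tested. AV leaf was the array apart in 6 of the 13, SK leaf in 3, AV fruit in 2, and TM fruit and SK fruit in 1 each.

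Among the genes described, AV leaf stood below the other leaves in AGP-1 (-2.86), bZIP1 (-2.62) and GRP1 (0.28), and above them in cdc2A-2 (-1.09) and eIF-5A3 (0.97). AV fruit stood below the other fruits in ADC (-0.35) and NDK (1.75). In CS1, TM fruit stood above the other fruits (0.20) and SK leaf below the other leaves (-1.09). OPT1 was higher in SK fruit (-1.64) than in the other fruits. Each group has 1 array per accession, so an array apart and an accession apart cannot be told apart.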

How the results depend on the processing

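The 74 genes became 25 under spike-in scaling, 32 at a threshold of 0.25, 124 at a threshold of 1 and 2 when every accession had to lie within the threshold. They numbered 60 to 80 when 1 accession was left out, with the fewest without AV, and 65 to 85 under the other settings, apart from 56 with every accession within 1. None of the 74 passed the accession F test under any scaling (of all features, 52 did under spike-in scaling and 0 otherwise), but 0 to 3 did when arrays were left out. The 3, without the AV fruit array, were AGP-1 (limma adjusted p = 0.0368), SRG2 (0.0416) and LOC100736441 (0.0478). An accession apart was called for 1 gene under spike-in scaling, AGP-1 in AV (limma adjusted p = 0.018), and for 0 to 5 when arrays were left out. The 5 were AGP-1, GRP1, LEA14, LOC100736441 and SRG2, without AV fruit, a fit that has only the leaf array of AV and assumes for it the spread of the rest. For LOC100736441 the AV contrast was 3.036 without AV fruit but -3.665 without AV leaf, so its sign depended on which AV array was kept. The share over all features was not counted for these accession contrasts. Whether such calls are more frequent among the 74 than elsewhere was therefore not tested. Leaving out single arrays for the accession contrasts was chosen after seeing the data.

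The median SD of fruit minus that of leaf, gene by gene, was -0.052. It was -0.11 with the percentile over all probes, -0.11 with quantile normalization, -0.32 under spike-in scaling, -0.12 with the deposited values, -0.14 with ranges, and -0.14 to -0.0011 when an accession was left out, the last without AV, with -0.012 without SK. Between fruit and leaf 0 of the 74 were called by limma with the accession block and 0 with no replicate block. With the percentile over all probes 1 was called and with the brightest probe 1, CS1 in each case, beside 3637 and 3404 of 6072 features. Slide as a random block called 16 (6 higher and 10 lower in fruit), beside 4662 features, spike-in scaling 61, beside 4131, and leaving out an accession 0 to 3, beside 2736 to 3661. These genes were chosen by the same difference, so nothing follows from these counts. The causes were not tested. The requirement of signal above background on all arrays left 207 of 1180 genes.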
